A study of Mus musculus with 6 samples.

Results

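The genes described here are the TRIM and RNF ubiquitin ligases that were detected in mouse bone marrow-derived dendritic cells. They were chosen by symbol, as genes named Trim or Rnf followed by a digit, with a probe detected on at least 3 of 6 arrays. Detected means a detection p, the share of negative control probes that were at least as bright, under 0.05. The array held 136 such genes, 61 Trim and 75 Rnf, and 81 of them met the detection rule, 30 Trim and 51 Rnf, among 9370 genes tested in all.

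Ubiquitin is a small protein that is attached to other proteins in a relay of an activating enzyme (E1), a conjugating enzyme (E2) and a ligase (E3). The ligase picks the target and, depending on how ubiquitin is linked, the target is degraded, moved in the cell or switched in its signalling. Most TRIM and many RNF proteins carry a RING domain, which brings the loaded E2 to the target. In dendritic cells and macrophages such ligases are known for tuning the sensors of viral RNA and the Toll-like receptor pathways, and for setting how long surface proteins stay at the membrane.

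MR-positive and MR-negative cells were compared, with 3 arrays of each. Both came from bone marrow kept for 1 week in GM-CSF, a growth factor that turns progenitors into dendritic cells, and both were given ovalbumin coupled to the dye Alexa647 before the sort. The mannose receptor (MR) is an endocytic receptor for glycoproteins, and uptake of the dyed ovalbumin told the populations apart. No strain, age or sex is given in the labels used here, and GM-CSF cultures are known to hold macrophage-like cells and granulocytes beside dendritic cells. Each population has an array titled M1, M2 and M3. Whether these stand for separate mice or cultures is not in the labels, so the p-values reflect just the spread among these samples, which may be technical, and precision is limited by there being 3 arrays a population.

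Mrc1, which encodes the mannose receptor, was at 12.68, 11.66 and 11.76 normalized log2 intensity on the MR-positive arrays M1 to M3, against 10.12, 8.74 and 9.33 on the MR-negative arrays. It was higher in MR-positive cells on every array, by 2.64 ± 0.39 log2 units (difference ± SE, limma adjusted p = 0.0051). The arrays detected 35.3% to 36.8% of 45281 probes. The summed intensity of the dendritic cell markers ran from 19056 to 24981 on MR-positive arrays and from 35421 to 43296 on MR-negative arrays. Of 8 such markers tested, Itgax rose and 6 fell, and Flt3 was not detected on any array. Zbtb46, a transcription factor of conventional dendritic cells, was detected on 0 of 3 MR-positive and 3 of 3 MR-negative arrays. It entered the test through the MR-negative arrays alone, so a lower MR-positive level was built into its selection. Macrophage markers summed to 12248 to 15155 on MR-positive arrays and 7409 to 8500 on MR-negative arrays, a sum that includes Mrc1 itself. Among 8 tested Mrc1 and Mertk rose, and 4 had a positive and 4 a negative difference. With the title number as a block 4 of the macrophage markers were higher and 1 lower. T or NK lymphocyte markers summed to 60 to 98 on MR-positive arrays, against 1865 to 4898 on MR-negative arrays. Of the 4 of these tested, Cd3d, Cd3g and Klrd1 fell and Cd2 rose, while Klrb1c and Ncr1 were not detected on any array. Neutrophil markers summed to 3077 to 5432 on MR-positive and 5114 to 17281 on MR-negative arrays, with 0 of 7 past the threshold in limma, 5 at an unadjusted p under 0.05, all lower, and 6 lower with the title number as a block. B lymphocyte markers summed to 39 to 49 on MR-positive and 21 to 31 on MR-negative arrays, with Ms4a1 and Pax5 not detected on any array and the 1 tested not past the threshold. Plasmacytoid dendritic cell markers summed to 728 to 914 on MR-positive and 610 to 892 on MR-negative arrays, with Irf7 higher among 3 tested and Siglech and Ccr9 not detected. The part of these marker differences in the ligases' values was not tested. In sorted populations read in bulk, fewer cells of a type and less RNA per cell cannot be told apart.

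Of 81, 5 reached an adjusted p under 0.05 with a higher level in MR-positive cells (Rnf128, Trim2, Rnf181, Trim29 and Rnf121) and 1 was lower (Rnf125). Trim29 is counted although it met the detection rule only through the MR-positive arrays. Rnf128, Trim2 and Rnf125 were detected on every array of their higher population but not of their lower one. By the lower population alone they would not have met the rule, so their adjusted p-values are also given as a description. Adjusted p-values here are those of limma with Benjamini-Hochberg correction over all 16686 probes tested. Among all genes tested 15.3% passed the same threshold, 8.19% higher and 7.13% lower. For the ligases the shares were 7.41% in all, 6.17% higher and 1.23% lower, so the share that passed was under that of all genes in each direction, a comparison given as a description with no test. An unadjusted p under 0.05 was reached by 19 ligases. The share of all genes at that level is not given here, so this and the other counts at an unadjusted p are descriptions. The ligases' median difference was 0.04 log2 units, against 0.02 for all genes, and their median absolute difference was 0.18, against 0.22.

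Arrays titled M1, and those titled M2, deviated together from their population means (correlations of 0.708 and 0.569), and those titled M3 less so (0.275). The M3 value was below those of MR-positive M2 with MR-negative M3 (0.382) and MR-positive M3 with MR-negative M2 (0.29). A fit with the title number as a block called more ligases. It called 21, of which 12 were higher and 9 lower, beside 30.0% of all genes, and the 6 named above were among them. The populations did not overlap for 10 ligases that were higher in MR-positive cells and 9 that were lower, where 18.9% and 15.6% of all genes did the same. Leaving out single arrays moved the count in the fit without the block. Without the MR-positive array M1 it was 3 higher and 3 lower, without MR-positive M2 2 higher and 1 lower, and without MR-positive M3 1 higher and 1 lower. Without the MR-negative array M1 it was 5 higher and 3 lower, and without MR-negative M2 or M3 it was 1 higher and 1 lower in each case. With MR-positive M1, M2 or M3 left out, 13%, 7.76% and 7.58% of all genes passed, against 15.3% with all arrays. With MR-negative M1, M2 or M3 left out, the share of all genes was 16.8%, 9.04% and 7.77%. Rnf128 and Rnf125 were called in all 6 of these fits, a description only, as their selection leaned on their higher population. Scaling the arrays to equal medians in place of quantile normalization gave 2 higher and 5 lower ligases, beside 15.4% of all genes. That scaling set the median of all genes at -0.11 in place of 0.02, and 32.8% of all calls were then higher, against 53.4%.

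**Figure D1:**
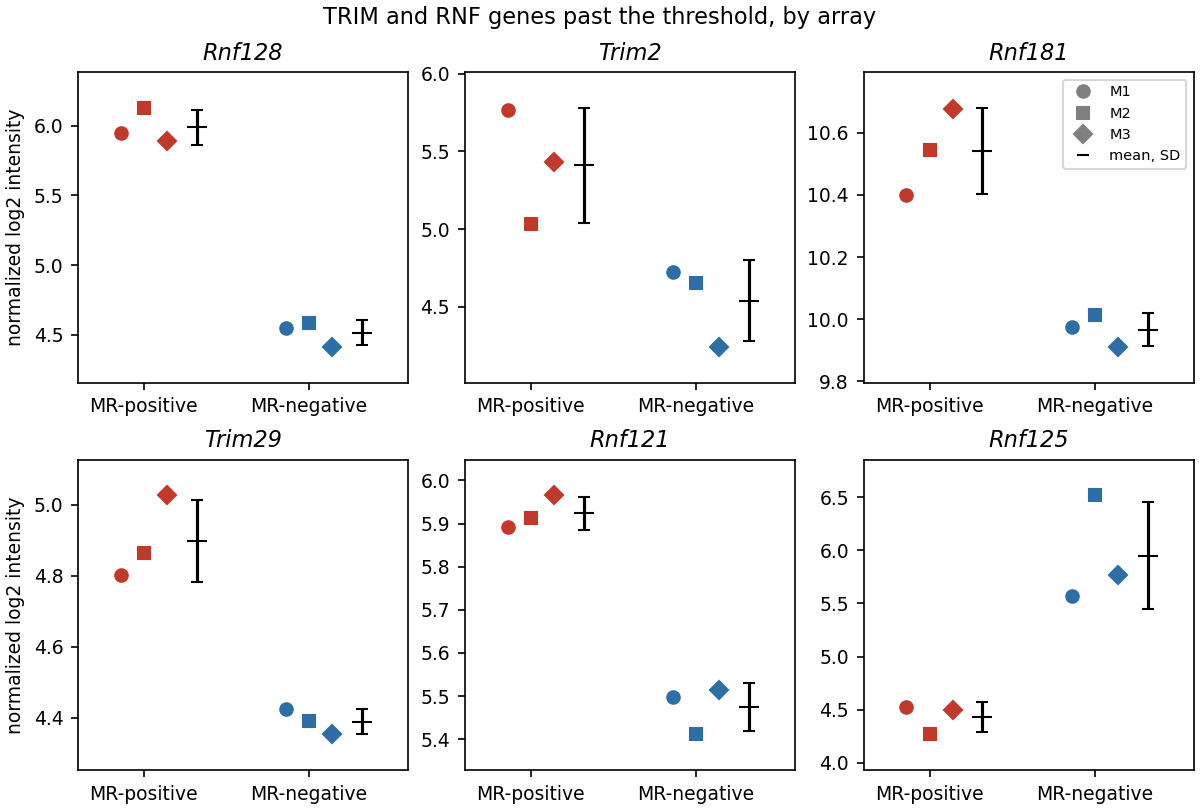
Normalized log2 intensity (vertical axes) of the 6 ligases past the threshold on each array, with MR-positive arrays on the left and MR-negative arrays on the right of each panel. Symbols mark the title numbers, and the bar is the mean with its SD (n = 3). In each panel the populations do not overlap, and only Rnf125 is lower in MR-positive cells.

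Rnf128, also known as GRAIL, belongs to the PA-TM-RING ligases, which sit in endosomal membranes with a protease-associated domain on the luminal side, and it is best known for restraining T cell activation. It was at 5.95, 6.13 and 5.89 log2 units in MR-positive cells M1 to M3, against 4.55, 4.58 and 4.41 in MR-negative cells, where 2 of 3 arrays detected it. The values of each population lay close together and far from those of the other. The difference was 1.47 ± 0.12 log2 units, which is 2.78-fold (adjusted p = 5.0e-04). It stayed past the threshold without each array in turn, with adjusted p-values from 8.3e-04 to 0.0049. With an offset of 50 in place of 16, which shrinks the differences of dim probes, the difference was 0.78 (adjusted p = 0.0016).

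Of the other 4 PA-TM-RING ligases tested, Rnf13, Rnf167, Rnf130 and Rnf150, 0 passed, and 2 had an unadjusted p under 0.05. Rnf13, a ligase of endosomes and the endoplasmic reticulum, was at 8.84, 8.55 and 8.30 in MR-positive cells and 8.23, 7.86 and 7.99 in MR-negative cells. The populations did not overlap, and the difference of 0.54 ± 0.18 had an adjusted p of 0.088, or 0.014 with the block. Rnf167, which resides in endosomes and lysosomes, ran the other way, at 6.21, 6.79 and 6.58 against 6.91, 7.16 and 7.04 in MR-negative cells. Its difference was -0.51 ± 0.17 (adjusted p = 0.097, or 0.015 with the block), and its 5 probes gave differences from -0.51 to -0.35. Rnf130 differed by 0.05 ± 0.13 and Rnf150 by -0.19 ± 0.14.

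Rnf125, also known as TRAC-1, is a membrane-attached ligase that marks the viral RNA sensors RIG-I and MDA5 for degradation and was described as a ligase of T cell activation. It was at 4.53, 4.27 and 4.50 log2 units in MR-positive cells, where 1 of 3 arrays detected it, against 5.57, 6.52 and 5.76 in MR-negative cells. All MR-negative arrays stood at least a log2 unit above the MR-positive ones of the same title number. The difference was -1.52 ± 0.24, which is 2.87-fold (adjusted p = 0.0071). The size depends on the offset added before the log, since Rnf125 lies near background: with an offset of 50 in place of 16 the difference was -0.80 (adjusted p = 0.023). The 3 MR-negative arrays alone met the detection rule, so the selection of Rnf125 leaned on the population where it is high, and its adjusted p is given as a description. A dimmer probe of Rnf125 was detected on 0 of 3 MR-positive arrays and entered the test through the MR-negative arrays alone, where it was at least 2.03-fold higher than in MR-positive cells. The fold of that probe is a bound and lends no further support. Of the 4 lymphocyte markers tested, Cd3g differed by -5.98 ± 0.30, Klrd1 by -4.53 ± 0.56 and Cd3d by -4.05 ± 0.40. Cd2 went the other way, by 1.18 ± 0.13. All 7 lymphocyte markers on the array together summed to 60 to 98 on MR-positive arrays. The sizes of the falls thus depend on the offset and are given as a description. The part of these markers in the result was not tested.

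The other genes of the RNF125 family, ligases that share a RING with zinc fingers and a ubiquitin-interacting motif, had differences of the same sign, none past the threshold. Rnf138, which acts in the resection of broken DNA ends, was at 5.01, 5.26 and 5.23 in MR-positive cells and 5.25, 5.68 and 5.56 in MR-negative cells, and the populations overlapped. Its difference of -0.34 ± 0.15 had an adjusted p of 0.21, or 0.049 with the block. Rnf114 differed by -0.20 ± 0.14 (adjusted p = 0.44) and Rnf166 by -0.11 ± 0.15 (adjusted p = 0.71). The median over the 4 genes was -0.27.

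Among the other membrane-anchored RNF ligases 1 of 8 passed. Rnf121, a multi-span ligase of the endoplasmic reticulum and Golgi, was at 5.89, 5.91 and 5.97 in MR-positive cells, against 5.50, 5.41 and 5.51 in MR-negative cells. Both populations were tight and did not overlap, at a difference of 0.45 ± 0.11 or 1.37-fold (adjusted p = 0.035), and 0.27 with an offset of 50 (adjusted p = 0.038). The call was lost without each array in turn, at adjusted p-values of 0.052 to 0.12. A dimmer Rnf121 probe differed by 0.22 ± 0.17 (adjusted p = 0.50). Rnf145, a sterol-responsive ligase of the endoplasmic reticulum that helps to degrade HMG-CoA reductase, was at 6.87, 5.90 and 5.97 in MR-positive cells and 7.54, 6.88 and 7.11 in MR-negative cells. Both M1 arrays were the highest of their population, and the populations did not overlap. Its difference was -0.93 ± 0.29 (adjusted p = 0.078, or 0.0017 with the block). Rnf185, a ligase of the endoplasmic reticulum membrane, differed by 0.16 ± 0.33 (adjusted p = 0.82).

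Rnf181, a small RING protein described as an integrin-binding ligase in human platelets, was at 10.40, 10.54 and 10.68 in MR-positive cells, against 9.97, 10.01 and 9.91 in MR-negative cells. The lowest MR-positive array was above the highest MR-negative array. The difference was 0.57 ± 0.12, or 1.49-fold (adjusted p = 0.022), and a dimmer probe gave 0.46 ± 0.14 (adjusted p = 0.071). Without MR-positive M2 or M3, or MR-negative M2 or M3, the adjusted p of Rnf181 was 0.081, 0.088, 0.061 and 0.095. It was the 1 gene past the threshold among 19 RNF genes outside the named families. In the same group Rnf115, a partner of Rab GTPases, differed by 0.23 ± 0.13 (adjusted p = 0.30). Rnf41, also known as Nrdp1 and known to ubiquitinate the Toll-like receptor adaptor MyD88, differed by 0.31 ± 0.20 (adjusted p = 0.37).

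Of the 30 TRIM genes 2 rose and 0 fell in limma, 6 were higher and 2 lower at an unadjusted p under 0.05, and 7 and 3 passed with the block. Trim2, a ligase first studied in neurons, where it ubiquitinates neurofilament light chain, was at 5.77, 5.03 and 5.43 in MR-positive cells, against 4.72, 4.65 and 4.24 in MR-negative cells, where 2 of 3 arrays detected it. The MR-positive values were the more spread, and the populations did not overlap. The difference was 0.87 ± 0.22, or 1.83-fold (adjusted p = 0.038), and 0.42 with an offset of 50 (adjusted p = 0.066). Without MR-positive M1 or M3, or MR-negative M2 or M3, the adjusted p of Trim2 was 0.081, 0.12, 0.085 and 0.14.

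Trim29, a family member without a RING that is known to dampen antiviral responses of macrophages and dendritic cells, was the 1 ligase detected in a single population. It was at 4.80, 4.86 and 5.03 in MR-positive cells, against 4.42, 4.39 and 4.35 in MR-negative cells, where it was not above background on any array. The MR-negative values are thus only an upper limit, and in MR-positive cells Trim29 was at least 1.31-fold higher. The gene met the detection rule through the MR-positive arrays alone, so a difference was built into its selection, and its adjusted p of 0.029 is given as a description. With an offset of 50 the adjusted p of Trim29 was 0.085. Without MR-positive M2 or M3, or MR-negative M2 or M3, the adjusted p of Trim29 was 0.090, 0.11, 0.087 and 0.11.

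Trim47, a RING ligase with a SPRY domain, had the largest difference among TRIM genes but did not pass. It was at 6.85, 5.69 and 5.51 in MR-positive cells, against 5.20, 4.45 and 4.90 in MR-negative cells, where 2 of 3 arrays detected it. The M1 array was the highest in both populations, and the populations did not overlap. The difference of 1.17 ± 0.36 had an adjusted p of 0.077, or 0.0041 with the block. Trim69 was at 4.94, 4.84 and 4.82, against 4.50, 4.54 and 4.40 in MR-negative cells, of which 1 array detected it. Its difference of 0.39 ± 0.11 had an adjusted p of 0.065, or 0.029 with the block. By the MR-negative arrays alone Trim47 and Trim69 would not have met the detection rule. Their selection leaned on the population where they are high, so their adjusted p-values are given as a description.

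The TRIM genes of transcription and chromatin gave 0 of 3 past the threshold without the block, 2 lower at an unadjusted p under 0.05, and 2 lower with the block. Trim28, the corepressor that KRAB zinc finger proteins bring to DNA, was at 8.10, 8.36 and 8.16 in MR-positive cells, against 8.49, 8.57 and 8.69 in MR-negative cells. The populations did not overlap, and the difference was -0.38 ± 0.13 (adjusted p = 0.098, or 0.042 with the block). Trim27, a nuclear and endosomal ligase, was at 6.89, 6.58 and 6.56, against 7.53, 7.13 and 7.12 in MR-negative cells. All 3 title numbers gave a similar difference, -0.64 to -0.55, and the fitted one was -0.58 ± 0.16 (adjusted p = 0.056, or 0.0054 with the block). A dimmer Trim27 probe did pass, at -0.51 ± 0.11 (adjusted p = 0.024). Trim33, a corepressor of the same family that binds Smad proteins, differed by 0.04 ± 0.12 (adjusted p = 0.88).

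The TRIM genes of innate immunity had small differences, mostly positive, and 0 of 9 passed, or 1 with the block. Their median was 0.23 log2 units and their range -0.18 to 0.38, beside a median of 0.02 over all genes, and with arrays scaled to equal medians it was 0.13 beside -0.11. None of the 9 had an unadjusted p under 0.05. A fit with array weights called 3, all higher, where it called 31.3% of all genes. Trim25, which activates RIG-I, was at 10.56, 11.19 and 11.30 in MR-positive cells, against 10.14, 10.92 and 10.85 in MR-negative cells. In both populations the M1 array was the lowest, so the populations overlapped although each title number gave a higher MR-positive value. The difference of 0.38 ± 0.27 had an adjusted p of 0.43, or 0.032 with the block. Trim30a, a mouse gene known to restrain Toll-like receptor signalling, differed by 0.35 ± 0.22 (adjusted p = 0.37) and its neighbour Trim30d by 0.28 ± 0.15 (adjusted p = 0.28). Trim65, a ligase of the RNA sensor MDA5, differed by 0.23 ± 0.14 (adjusted p = 0.37), and Trim56 by 0.30 ± 0.22 (adjusted p = 0.45). Trim21, the cytosolic antibody receptor, differed by 0.08 ± 0.13, Trim34a by -0.02 ± 0.18, Trim26 by -0.06 ± 0.11 and Trim30b by -0.18 ± 0.16. Trim30a, Trim30b and Trim30d are close copies, so their probes may share signal.

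Interferon-response genes, a list of known interferon targets, are given here because many TRIM genes are among such targets. Of 28 tested, 7 were higher and 1 lower (28.6%, against 15.3% of all genes), with a median of 0.29 log2 units, and 10 were higher and 2 lower with the block. Rsad2, an antiviral radical enzyme, averaged 9.10 ± 0.16 in MR-positive and 7.54 ± 0.16 log2 units in MR-negative cells (SD, n = 3 each), a difference of 1.56 ± 0.14 (adjusted p = 6.7e-04). Ifit2, which binds RNA, differed by 1.53 ± 0.24 (adjusted p = 0.0063), and the guanylate-binding proteins Gbp2 and Gbp3 by 1.06 ± 0.12 (adjusted p = 0.0020) and 0.96 ± 0.17 (adjusted p = 0.012). The 1 that fell was Isg20, a nuclease, at -0.54 ± 0.14 (adjusted p = 0.045). The count was 3 without MR-positive M2 or MR-negative M3, 5 without MR-positive M1 or M3, and 5 with arrays scaled to equal medians. Without MR-negative M1 none of the genes called with all arrays lost its call, and without MR-negative M2 only Ifi47 and Isg20 did. The shares of all genes called in those fits are given above. Rsad2, Ifit2 and Gbp2 passed without each array in turn, whereas Gbp3 did not without MR-positive M2 or MR-negative M3, and Isg20 passed in 1 of those 6 fits.

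The promoters of the ligases and of the interferon-response genes were read for a motif that interferon-induced factors bind. The core of the interferon-stimulated response element, GAAA, any 2 bases and GAAA, was searched on both strands of RefSeq promoter windows of GRCm38.p6, which span the start site. It was in 3.99% of the 27025 genes with a promoter window and in 3.82% of the 7673 tested genes that had one. A gene was counted if any of its windows held the motif, so genes with several windows had more openings for a match. Of 62 ligases with a promoter 9 held it (14.5%), and 5 of 8 TRIM genes of innate immunity did (62.5%), namely Trim21, Trim26, Trim30a, Trim30d and Trim34a. Of 21 interferon-response genes 13 held it (61.9%), and of the 7 that were higher in MR-positive cells 3 did (42.9%). Among the ligases past the threshold it was in 2 of the 4 with a promoter, Rnf121 with 1 window and Trim2 with 5. The others, Rnf128 and Rnf181, had 1 and 2 windows. The matches of Trim2, Trim21, Trim34a and Rnf20 lay after the start site, and those of Trim26, Trim30a, Trim30d, Rnf121 and Rnf146 before it, with a further one after it in Trim30a. Stretches before the start site follow, on the gene's strand, with the match in capitals. Those of Trim26, Trim30a and Trim30d are shown as innate immunity genes, that of Rnf121 as a ligase past the threshold, and that of Gbp2 as an interferon-response gene past the threshold. In Trim26 the capitals cover a pair of overlapping matches.
Trim26, chr17:36836961-36837026, plus strand: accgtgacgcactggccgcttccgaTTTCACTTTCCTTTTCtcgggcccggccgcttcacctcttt
Trim30a, chr7:104465195-104465254, minus strand: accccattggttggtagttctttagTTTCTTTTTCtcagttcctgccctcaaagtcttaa
Trim30d, chr7:104507856-104507915, minus strand: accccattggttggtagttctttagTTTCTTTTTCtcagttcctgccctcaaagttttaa
Rnf121, chr7:102065308-102065367, minus strand: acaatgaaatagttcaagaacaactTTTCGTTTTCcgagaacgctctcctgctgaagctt
Gbp2, chr3:142620579-142620638, plus strand: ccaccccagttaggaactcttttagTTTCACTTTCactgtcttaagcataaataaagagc

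The Trim30a and Trim30d stretches differed at 1 of 60 bases. Trim26 and Gbp2 both hold the element, and their differences between the populations were -0.06 ± 0.11 and 1.06 ± 0.12 log2 units. A match is a run of letters and does not show that a factor binds there.

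The RNF genes of chromatin, DNA damage and SUMO-targeted ubiquitination had 0 of 10 past the threshold, 3 lower at an unadjusted p under 0.05, and 2 lower with the block. Rnf8, which builds the first ubiquitin marks at DNA breaks, was at 6.91, 6.91 and 6.94 in MR-positive cells, against 7.03, 7.59 and 7.52 in MR-negative cells. The difference of -0.46 ± 0.17 had an adjusted p of 0.12, or 0.041 with the block. Rnf169, which reads those marks, differed by -0.44 ± 0.16 (adjusted p = 0.12, or 0.020 with the block). The RING-between-RING ligases had 0 of 5 past the threshold, 1 higher at an unadjusted p under 0.05, and the same number with the block. Rnf14, described as a coactivator of the androgen receptor, was at 9.28, 9.19 and 9.13, against 8.74, 8.65 and 8.95 in MR-negative cells. Its difference was 0.42 ± 0.13 (adjusted p = 0.075, or 0.037 with the block). Rnf19a differed by -0.10 ± 0.13 (adjusted p = 0.71). Rnf31, the catalytic subunit of the complex that makes linear ubiquitin chains, was at 6.35, 5.58 and 5.24 in MR-positive cells, against 6.22, 5.82 and 5.45 in MR-negative cells. The M1 array was the highest and M3 the lowest in both populations, and the difference was -0.11 ± 0.31 (adjusted p = 0.88).

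**Figure D2:**
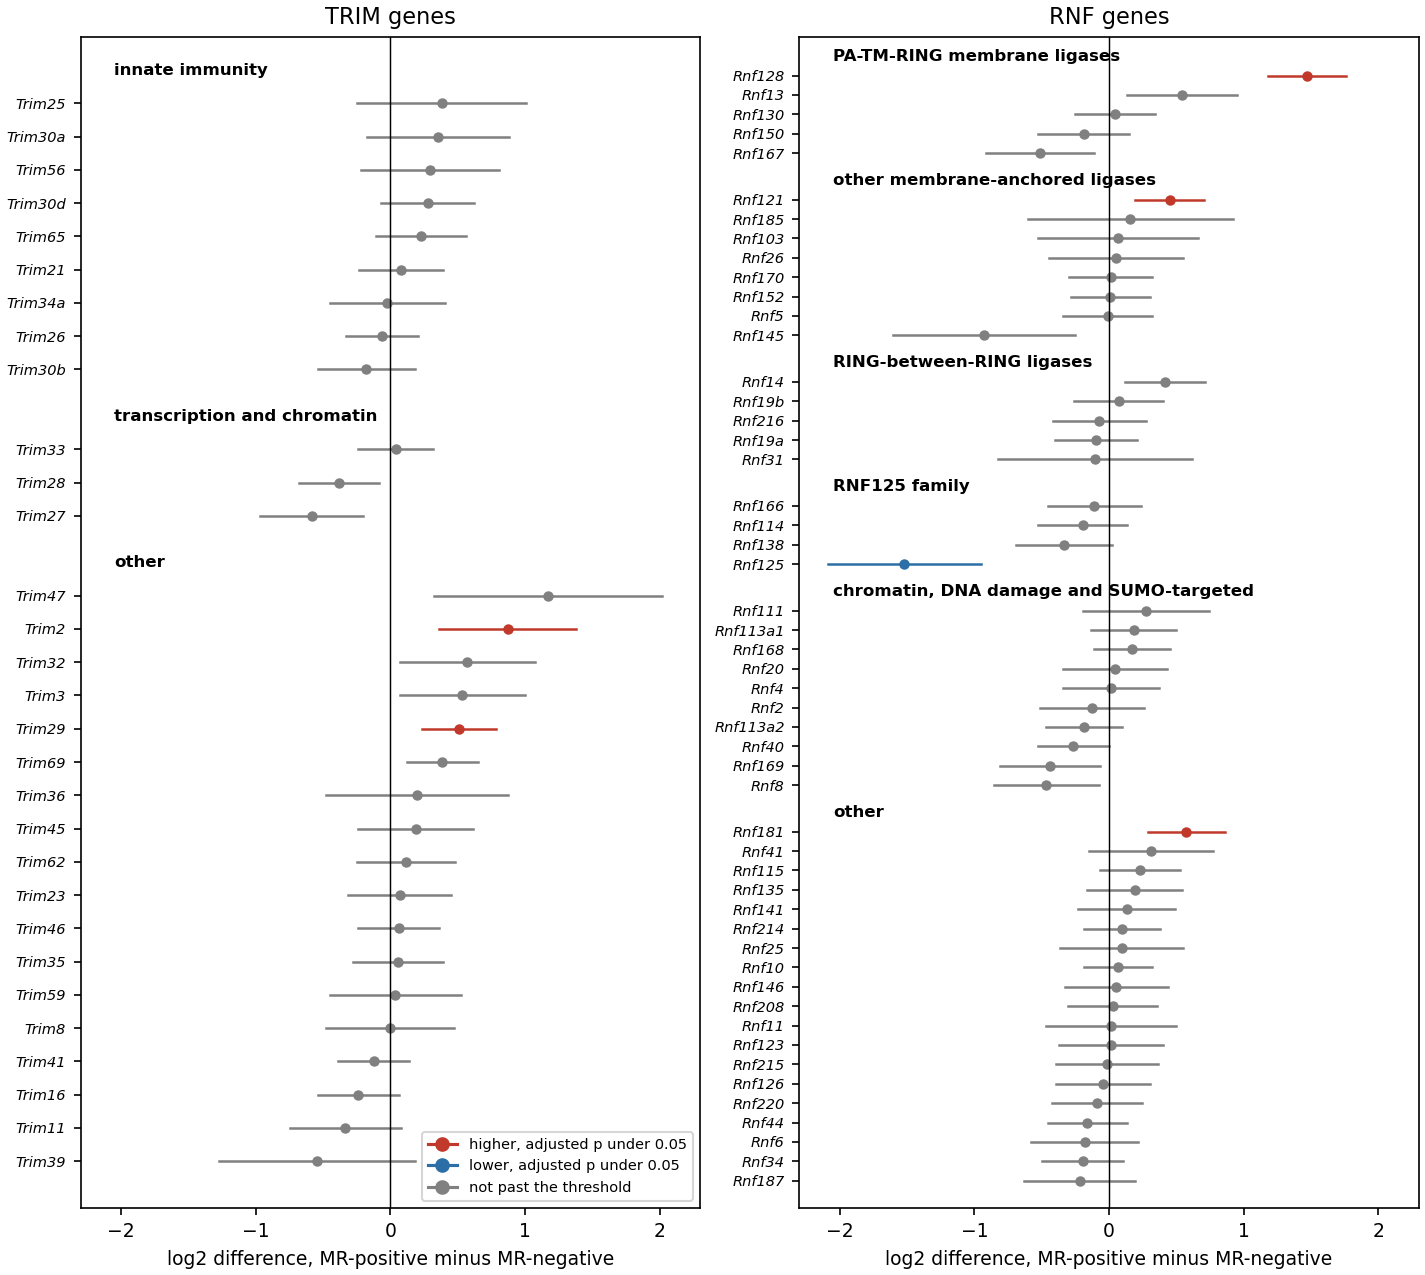
Log2 difference, MR-positive minus MR-negative (horizontal axis), of the 81 ligases by role group, with TRIM genes on the left and RNF genes on the right. Points are the fitted differences and lines their 95% intervals. The 5 ligases in red and the 1 in blue passed the threshold, and most of the others cluster near 0.

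How small the differences were can be read from their intervals. Of the 75 ligases that did not pass, 69 (92%) had a 95% interval that lay within a 2-fold change in either direction, against 88.6% of the 7935 genes that did not pass. The median half-width was 0.36 log2 units for these ligases and 0.37 for these genes. For the remaining 6, Trim47 and Rnf145 among them, the interval reached past a 2-fold change.

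The range of the 3 means by title number was larger than the difference for 50 of 81 ligases, against 5446 of 9370 genes tested. That range was 0.95 log2 units for Trim47, 0.94 for Rnf185, 0.94 for Rnf31 and 0.73 for Trim25. For Rnf185 the M1 arrays were at 7.34 in MR-positive and 6.97 in MR-negative cells, and the other 4 arrays lay between 7.95 and 8.16. Rnf185 is picked out here after its values were seen. The M1 array was the lowest within each population in 17 ligases and the highest within each in 23, which is 21% and 28.4%, against 27.5% and 26.6% of all genes. All 3 title numbers gave the same sign in 37 ligases (45.7%), against 61.3% of all genes.

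The block added 15 ligases to the 6 called without it. Those higher in MR-positive cells were Trim47, Trim32, Rnf13, Trim3, Rnf14, Trim69 and Trim25. Those lower were Rnf145, Trim27, Trim39, Rnf167, Rnf8, Rnf169, Trim28 and Rnf138. Trim47 and Trim69 were not detected on every MR-negative array, so their calls with the block are given as a description. Trim32, a ligase with NHL repeats that is mutated in a human muscular dystrophy, was at 7.63, 7.28 and 7.22 in MR-positive cells, against 7.24, 6.53 and 6.63 in MR-negative cells. The populations overlapped, and the difference was 0.57 ± 0.22 (adjusted p = 0.13, or 0.0097 with the block). Trim3, another NHL-repeat ligase, differed by 0.54 ± 0.20 (adjusted p = 0.13, or 0.016 with the block). Trim39 differed by -0.54 ± 0.31 (adjusted p = 0.32, or 0.030 with the block). Trim3, Trim32 and Trim39 are named because the block called them.

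**Figure D3:**
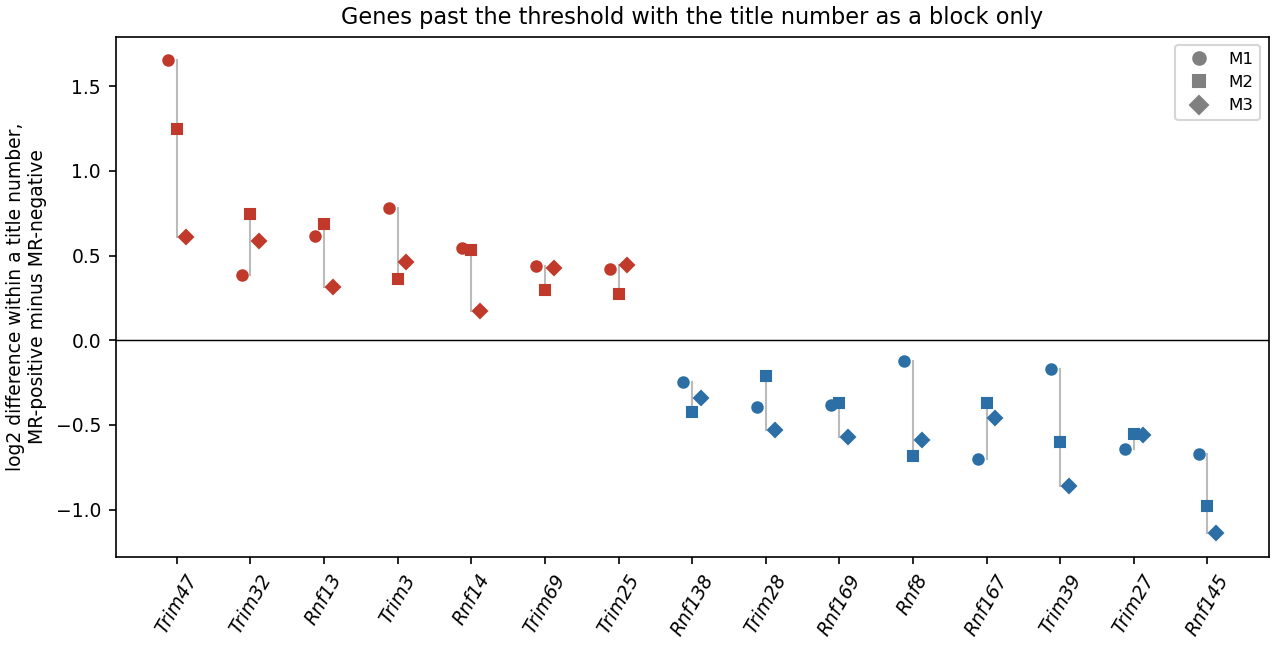
Log2 difference within each title number, MR-positive minus MR-negative (vertical axis), for the 15 ligases called only with the title number as a block. Symbols mark M1, M2 and M3, red is higher and blue lower. In each gene the 3 differences have the same sign.

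Several probes were tested for 34 of the ligases, and in 4 of them some probes passed and others did not. These were Rnf121, Rnf181, Trim27 and Rnf25, a ligase that binds an NF-kB subunit. The brightest Rnf25 probe differed by 0.09 ± 0.20 (adjusted p = 0.82), while a dimmer Rnf25 probe rose by 0.53 ± 0.13 (adjusted p = 0.039). No ligase had probes called in opposite directions. Rnf25 was singled out after its values were seen.

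At the edge of detection, 4 ligases were counted with 3 arrays each. Trim29, Trim62, Trim30b and Rnf152, a lysosomal ligase, had mean signals of 35.5, 34.2, 33.0 and 32.6 in arbitrary units. Just outside were Rnf148 and Trim37, detected on 2 arrays at 33.6 and 32.7, and Trim6, detected on 1 array at 33.4. In all, 65 ligases were detected on all 6 arrays. Of the 55 genes left out, 47 were not detected on any array and 8 on 1 or 2.

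The rest of the ubiquitin pathway was described with lists of enzymes. Of 142 genes tested in these lists 12 passed (8.45%, against 15.3% of all genes), 8 higher and 4 lower. With the block 30 passed (21.1%, against 30.0% of all genes), 16 higher and 14 lower. Without MR-positive M1, M2 or M3 the 12 became 9, 5 and 5, and without MR-negative M1, M2 or M3 they became 13, 5 and 7, in fits whose shares of all genes are given above. With arrays scaled to equal medians 3 were higher and 8 lower. Uba6 rose among 6 E1 enzymes and ubiquitin genes, by 1.25 ± 0.16 (adjusted p = 0.0031). Uba6 is an activating enzyme that also loads the ubiquitin-like protein FAT10. Of 24 E2 enzymes 2 rose and 1 fell, or 3 and 3 with the block. Ube2e2 averaged 7.61 ± 0.05 in MR-positive and 5.53 ± 0.21 log2 units in MR-negative cells (SD, n = 3 each), a difference of 2.07 ± 0.14 (adjusted p = 2.2e-04). Ube2l6, which carries the interferon-induced modifier ISG15, rose by 0.58 ± 0.14 (adjusted p = 0.030), and Ube2j1, an E2 of the endoplasmic reticulum, fell by 0.72 ± 0.17 (adjusted p = 0.030).

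Among 19 ligases of the HECT class, which take ubiquitin onto themselves before passing it on, 2 rose and 0 fell, with 3 and 1 at an unadjusted p under 0.05. Wwp1 differed by 0.59 ± 0.12 (adjusted p = 0.018) and Hectd2 by 0.45 ± 0.11 (adjusted p = 0.034). Of 47 other RING ligases 3 rose and 2 fell, or 8 and 6 with the block. Neurl3 averaged 4.76 ± 0.11 in MR-positive and 6.79 ± 0.41 in MR-negative cells (SD, n = 3 each), a difference of -2.04 ± 0.21 (adjusted p = 0.0010). Birc2, the inhibitor of apoptosis cIAP1, differed by -1.26 ± 0.19 (adjusted p = 0.0057). Znrf1 differed by 0.77 ± 0.12 (adjusted p = 0.0061), Marchf1, which removes MHC class II and CD86 from the surface of dendritic cells, by 0.72 ± 0.17 (adjusted p = 0.030), and Mkrn1 by 0.55 ± 0.12 (adjusted p = 0.027). Of 46 deubiquitinases 0 rose and 1 fell, with 1 and 3 at an unadjusted p under 0.05. The 1 that fell was Usp3, which acts on histones, at -0.63 ± 0.13 (adjusted p = 0.019). Uba6, Ube2e2, Neurl3, Birc2 and Znrf1 passed without each array in turn, Wwp1 and Usp3 in 3 of 6 such fits, Ube2l6, Ube2j1, Marchf1 and Mkrn1 in 1, and Hectd2 in 0. The medians of the 5 lists lay between -0.01 and 0.14 log2 units.

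**Figure D4:**
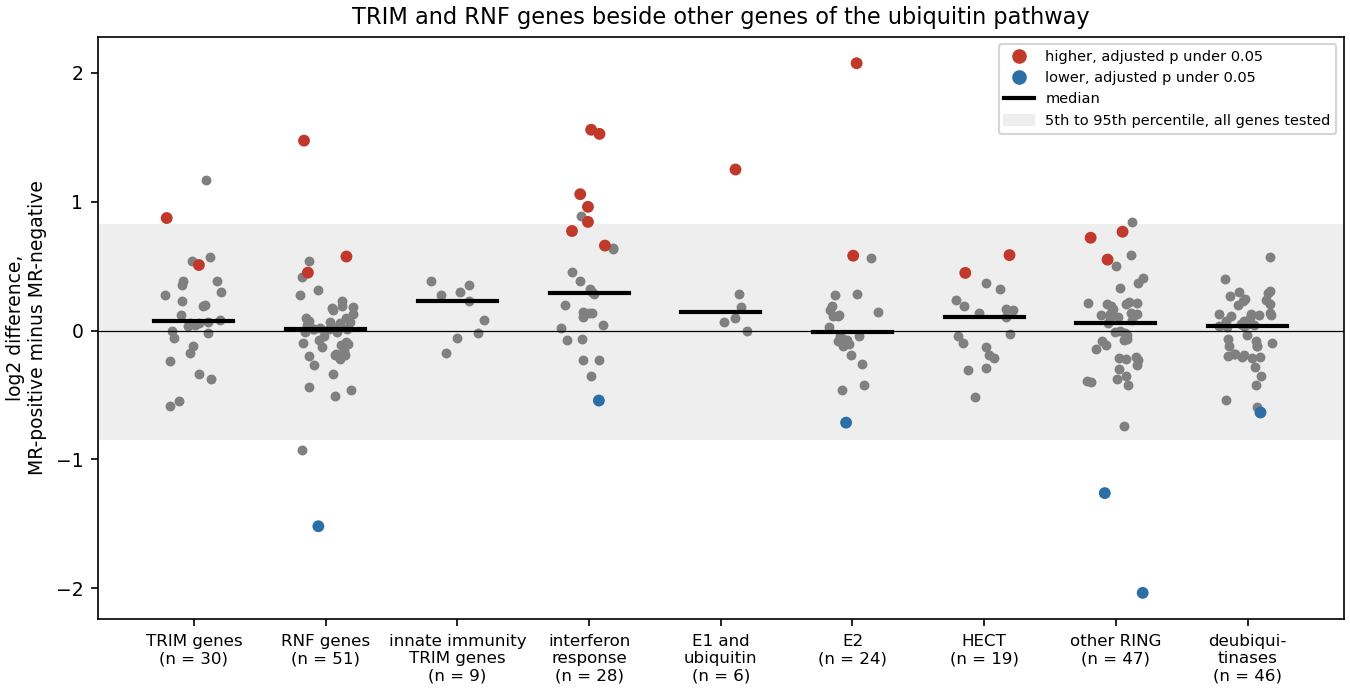
Log2 difference, MR-positive minus MR-negative (vertical axis), of each tested gene in the TRIM and RNF families, the interferon-response list and 5 other lists of the ubiquitin pathway. Red and blue points passed the threshold, the black line is the median, the grey band spans the 5th to the 95th percentile of all genes tested, and the innate immunity TRIM genes are also among the TRIM genes. The innate immunity TRIM genes have a median of 0.23 and no coloured point, and the interferon-response list has 7 red and 1 blue.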

How the data were processed

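Per the labels' protocols, sorted cells were lysed in Trizol and their RNA was turned into biotinylated cRNA, which was hybridised to Illumina bead arrays. The table the authors deposited gives a non-normalized intensity per probe and array on a linear scale. Per the file headers a p-value stands beside each intensity in the deposited table, and it was read as a detection p because it falls as the intensity rises and is a whole multiple of 1 in 936, within 0.001 of a whole number. A second deposited table, with intensity values the authors had quantile normalized, served as an alternative. The scanner and the export software are not stated by the labels or headers.

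In limma 3.58.1 (R 4.3.3), neqc corrected the background with the detection p, quantile normalized, added an offset of 16 and took log2. Probes detected on at least 3 of 6 arrays were tested with lmFit and eBayes, two-sided, with Benjamini-Hochberg adjustment and a threshold of 0.05, after a check of the code on simulated data. The probe annotation gave 1 gene symbol to 34885 of 45281 probes and several to 18. The brightest tested probe stood for a gene. For a gene undetected in 1 population the fold is a lower bound, from the higher, on each array, of its own level and the dimmest detected probe.

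Same-numbered arrays deviated together from their population means across probes, with correlations of 0.708 (M1), 0.569 (M2) and 0.275 (M3). MR-positive M2 with MR-negative M3 and MR-positive M3 with MR-negative M2 also had positive correlations, 0.382 and 0.290, both above the M3 pair. As all 3 same-number values exceeded 0.1, the title number was also fitted as a block. Members and lists were chosen with earlier results of these data known. Named were all ligases past the threshold, the 2 smallest p-values of each role group among the others, Trim25, Trim28 and Rnf31, up to 4 genes of each pathway list, those at the detection edge, and Mrc1. Other genes are named where a short list is given in full or the block called them, after their values were seen.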

Additional observations from a re-analysis of the deposited data

How the results depend on the processing

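Rnf128 kept its direction and its side of the threshold in all 19 alternatives in which it was tested, at differences of 0.78 to 1.54. In this and the other totals, no background correction and the authors' normalized values are counted separately. They gave the same values, since the authors' table is the quantile-normalized signal, and are in effect a single analysis. Rnf125 kept its direction in 19, at -1.76 to -0.80, and lost the call in 2, without a filter on dim probes and without both M3 arrays. The call was lost in 10 of 20 alternatives for Rnf121, 7 of 20 for Rnf181, 9 of 19 for Trim2 and 7 of 18 for Trim29, and 0 reversed. Trim25 gained a call in 1 alternative, the block, and Trim28 in 3, the block, equal medians and array weights.

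With the title number as a replicate block 12 ligases were higher and 9 lower, beside 2810 genes and 4628 probes in place of 1435 and 2298. Array weights gave 14 higher and 10 lower, with 2930 genes and 4944 probes. Equal medians gave 2 higher and 5 lower. Probes detected on all 6 arrays gave 2 higher and 0 lower, where 65 ligases were tested and neither Rnf128 nor Rnf125 was among them, and no filter on dim probes gave 0 lower. The mean over a gene's probes gave 2 lower. Leaving out both M1 arrays gave 8 higher and 5 lower. Leaving out both M2 arrays gave 1 higher, 338 genes and 533 probes, and leaving out both M3 arrays 1 higher, 0 lower, 142 genes and 219 probes. Leaving out single arrays gave 1 to 5 higher, 1 to 3 lower, 710 to 1574 genes and 1151 to 2544 probes. The cause of these changes was not tested, except that fewer arrays or probes entered some fits. Another offset, no background correction, cyclic loess, the authors' normalized values and a detection p under 0.01 left the number of higher and of lower ligases within 1.5 times. Most called ligases lay near the background signal, where the offset compresses differences.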

Other observations

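Some of the genes lie next to each other in the RefSeq annotation, with no coding gene between them. Rnf125 and Rnf138 are such a pair, with differences of -1.52 ± 0.24 and -0.34 ± 0.15 log2 units between MR-positive and MR-negative cells, of which Rnf125 passed the limma threshold. Trim47 and Trim65 are another, at 1.17 ± 0.36 and 0.23 ± 0.14, neither past it. On chromosome 7, Trim30b, Trim30a and Trim30d lie in a cluster with Trim6, Trim34a, Trim5, Trim12a, Trim34b, Trim12c and Trim30c. Within that cluster 1 coding gene lies between Trim12c and Trim30b. The 4 cluster genes that were tested, Trim34a, Trim30b, Trim30a and Trim30d, had differences between -0.18 and 0.35. Trim26 on chromosome 17 is followed by Trim15, Trim10, Trim40 and Trim31, 0 of which were detected on any array.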
